A study of Mus musculus with 12 samples.

Results

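The Schwann and glial cell genes examined here were Ngfr, Sox10, S100b, Gfap, Foxd3, Erbb3 and Cdh19. They were taken as the gene identifiers that map to these 7 symbols, out of 52962 identifiers measured, and each symbol matched 1 identifier. Their RNA was measured by sequencing in islets of female NOD mice, which become diabetic through autoimmune loss of β-cells, at the ages of 4 and 8 weeks. Islets were dispersed, cells stained for CD45 were depleted, and the remainder was sorted by autofluorescence into a β-cell and a non-β-cell fraction, giving 4 groups of 3 replicates. All groups carried the NOD genotype, and no mice of another strain entered the comparison. Replicates were pools of 3 mice, on which the labels say nothing. If the samples were not separate pools, the p-values measure only the spread between these libraries. The non-β fraction is defined by low autofluorescence and not by a glial marker, so any Schwann cells in it are mixed with endocrine and other cells.

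Schwann cells are the glia of peripheral nerves. In the islet, non-myelinating Schwann cells form a sheath around the endocrine core and accompany the autonomic fibres that enter it. They descend from the neural crest, where SOX10 and FOXD3 act as transcription factors of the early glial lineage. Neuregulin 1 on axons signals through ERBB3, which has little kinase activity of its own and pairs with ERBB2, and this signal supports the survival and growth of Schwann cells. NGFR, the p75 receptor, binds neurotrophins and marks immature and non-myelinating Schwann cells. GFAP is the intermediate filament of astrocytes and non-myelinating Schwann cells, S100B is a calcium-binding protein abundant in glia, and CDH19 is a cadherin of Schwann cell precursors.

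RefSeq promoter windows in build GRCm38.p6, from 250 bases before the annotated start to 20 bases after it, were matched for 4 of the 7 genes. Those of Ngfr and Gfap are shown because Ngfr was among the highest and Gfap among the lowest of the 7 genes per length. Both lie on the minus strand of chromosome 11, at chr11:95587679-95587948 for Ngfr and chr11:102897181-102897450 for Gfap, and capitals mark CpG dinucleotides.
Ngfr: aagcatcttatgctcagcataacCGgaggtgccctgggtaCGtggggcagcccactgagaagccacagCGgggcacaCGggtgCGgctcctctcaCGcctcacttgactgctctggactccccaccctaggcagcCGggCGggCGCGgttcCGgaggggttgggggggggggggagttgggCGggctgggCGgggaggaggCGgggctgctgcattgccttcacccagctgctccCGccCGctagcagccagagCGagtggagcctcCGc
Gfap: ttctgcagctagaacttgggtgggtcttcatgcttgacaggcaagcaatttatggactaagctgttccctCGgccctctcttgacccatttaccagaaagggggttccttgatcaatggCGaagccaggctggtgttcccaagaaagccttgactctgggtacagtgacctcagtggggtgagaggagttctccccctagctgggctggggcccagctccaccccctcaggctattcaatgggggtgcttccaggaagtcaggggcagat
The Ngfr window held 18 CpG dinucleotides and the Gfap window 2, against a median of 6 over 32851 windows. The Foxd3 window held 22 and the S100b window 3. The SOX-type letters ACAAAG or ACAATG, searched on both strands, were in none of the 4 windows and in 26.7% of all windows, and no match says only that these letters are not in this stretch.

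Depth ran from 13755106 to 27040652 estimated counts per sample. Levels are given in CPM, the share of a library's counts after TMM scaling, which corrects for differences in library composition. The fractions matched their labels in the marker lists: all 7 β-cell markers were higher in the β fraction and all 8 α-, δ- and PP-cell markers higher in the non-β fraction at both ages. The shares of tested genes were 24.9% and 23.6% higher in the β and 23.7% and 25.6% in the non-β fraction at 4 and 8 weeks. In the β fraction 6 of these 8 markers fell with age and 0 rose, against 9.35% and 8.59% of tested genes. Mean Gcg there was 6896 CPM at 4 weeks and 1986.5 CPM at 8 weeks, and the part of such carry-over in the results was not tested. Replicates differed beyond counting noise in every pair, the chi-square divided by its degrees of freedom running from 8.15 to 101, and the highest values came from pairs with replicate 3 of the 4-week β-cells. A gene was tested if 3 or more samples had a CPM over 1, which left 15598 genes and kept 3 of the 7, namely Ngfr, Sox10 and Erbb3. A gene that passed only through the non-β samples, as Sox10 did, was bound to be higher there, so the number of tested members that differed is not evidence of its own. The same holds for age: Sox10 was over this level in all 3 samples of 8-week non-β-cells and in 1 other sample, and would not have been tested without that group. S100b, Gfap, Foxd3 and Cdh19 fell under the filter and are described by their estimated counts.

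Per kilobase of exon, Ngfr and Erbb3 were the highest of the 7 in every group. In non-β-cells at 8 weeks their levels were 3.23 ± 0.879 and 3.11 ± 0.581 CPM per kilobase (SD, n = 3), a difference within their spread. Sox10 followed at 1.09 ± 0.354 and Foxd3 at 0.190 ± 0.122. S100b, Gfap and Cdh19 lay between 0.0618 and 0.0788 CPM per kilobase and did not differ beyond their spread. In non-β-cells at 4 weeks Erbb3 stood first at 2.13 ± 0.285, Ngfr second at 1.47 ± 0.0888 and Sox10 next at 0.281 ± 0.245. In β-cells Erbb3 stood at 0.845 ± 0.236 at 4 weeks and 0.936 ± 0.0516 at 8 weeks, and Ngfr at 0.310 ± 0.0850 and 0.344 ± 0.347, so Erbb3 was the most abundant of the genes there.

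Sox10 (ENSMUSG00000033006, chr15:79154908-79165240, minus strand, GRCm38) gave estimated counts of 0, 0 and 0 in 4-week β-cells and 2, 0 and 0 in 8-week β-cells. In non-β-cells it gave 2, 32 and 19 at 4 weeks and 72, 32 and 88 at 8 weeks. All but 2 of its counts were thus in the non-β fraction, and those 2 came from replicate 1 of the 8-week β-cells. Replicate 1 of the 4-week non-β-cells was as low as that β sample and overlapped it. Summed over both ages, 245 counts in non-β-cells stood against 2 in β-cells, a ratio of 139 after scaling by depth, with an exact binomial 95% interval of 38.2 to 1157 that covers counting error only. The β library that held those 2 counts was then left out, a choice made after seeing the data, like the other ratios without 1 library. Sox10 was then at least 78.5-fold higher, taking 3 counts over the remaining β libraries as the floor. Values given as "at least" take the non-β counts as observed, so they are not lower limits of an interval. Foxd3 (ENSMUSG00000067261, chr4:99656299-99658622, plus strand), the other transcription factor of the early lineage, gave no count in 4-week β-cells and 0, 0 and 2 in 8-week β-cells. Its counts in non-β-cells were 9, 4 and 0.5 at 4 weeks and 6.5, 3.5 and 15 at 8 weeks. After rounding, 38 counts stood against 2, a ratio of 21.6 (interval 5.58 to 185), and without replicate 3 of the 8-week β-cells Foxd3 was at least 11.8-fold higher. An annotated small gene, Gm23366, overlaps Foxd3 on the same strand, and how its reads were divided was not examined.

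**Figure D1:**
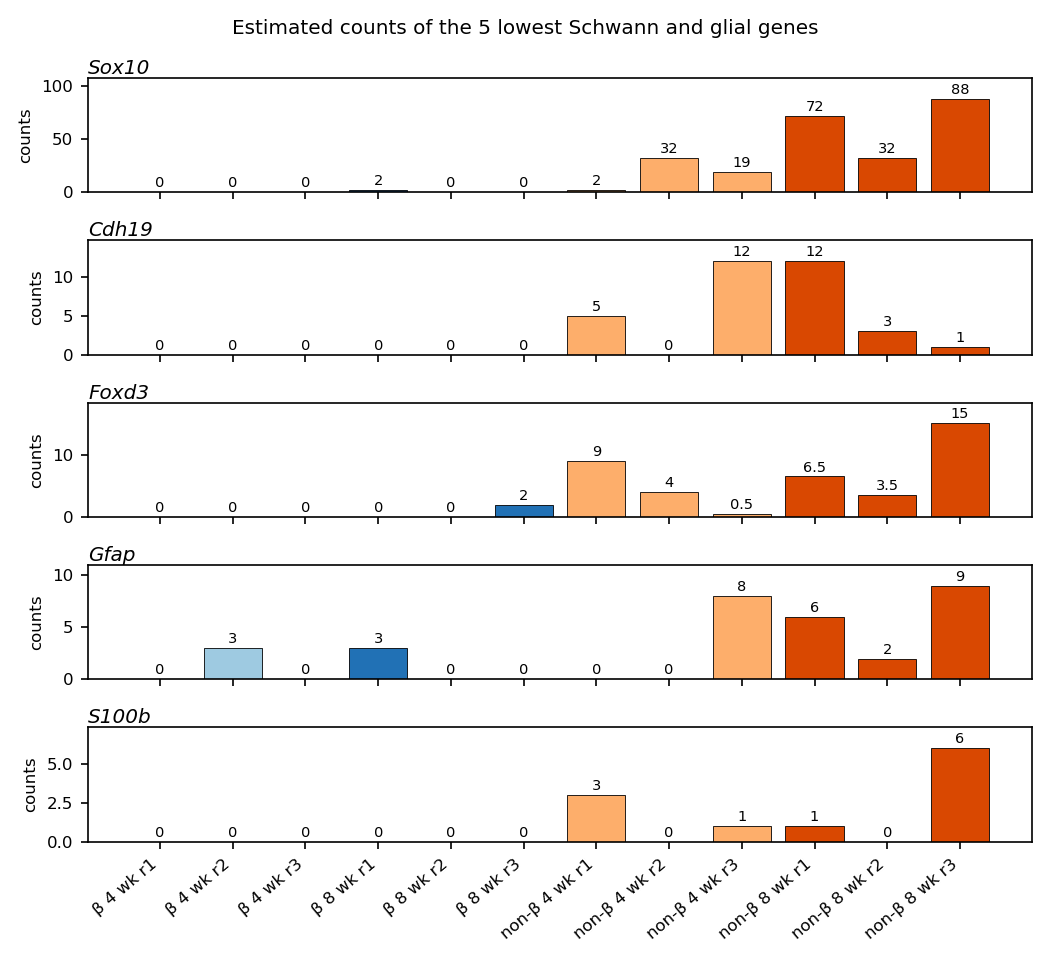
Estimated counts (vertical axes, linear, each with its own range) of Sox10, Cdh19, Foxd3, Gfap and S100b in each of the 12 libraries (horizontal axis). Bars are single libraries labelled with their counts, and the 6 β libraries on the left are at 0 to 3 counts in all 5 genes, whereas Sox10 reaches 88 in an 8-week non-β library.

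Ngfr (ENSMUSG00000000120, chr11:95568818-95587735, minus strand) stood at 0.763, 1.35 and 1.10 CPM in 4-week β-cells and at 0.462, 0.527 and 2.56 CPM in 8-week β-cells. In non-β-cells it stood at 5.31, 5.18 and 4.73 CPM at 4 weeks and at 11.3, 8.05 and 14.1 CPM at 8 weeks. All 6 non-β samples lay above all 6 β samples, and replicate 3 of the 8-week β-cells was the highest of the β samples. Erbb3 (ENSMUSG00000018166, chr10:128567523-128589652, minus strand) stood at 6.30, 5.42 and 3.53 CPM in 4-week β-cells and at 5.50, 5.98 and 5.41 CPM in 8-week β-cells. In non-β-cells it stood at 11.8, 14.8 and 11.9 CPM at 4 weeks and at 22.8, 16.6 and 16.9 CPM at 8 weeks. Erbb3 likewise separated the fractions in all samples, but it was well above the floor in β-cells, with 77 to 159 estimated counts per library. All 6 non-β samples lay above all 6 β samples in 15.7% of tested genes. The annotated microRNA gene Mir6917 lies within Erbb3 on the same strand.

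**Figure D2:**
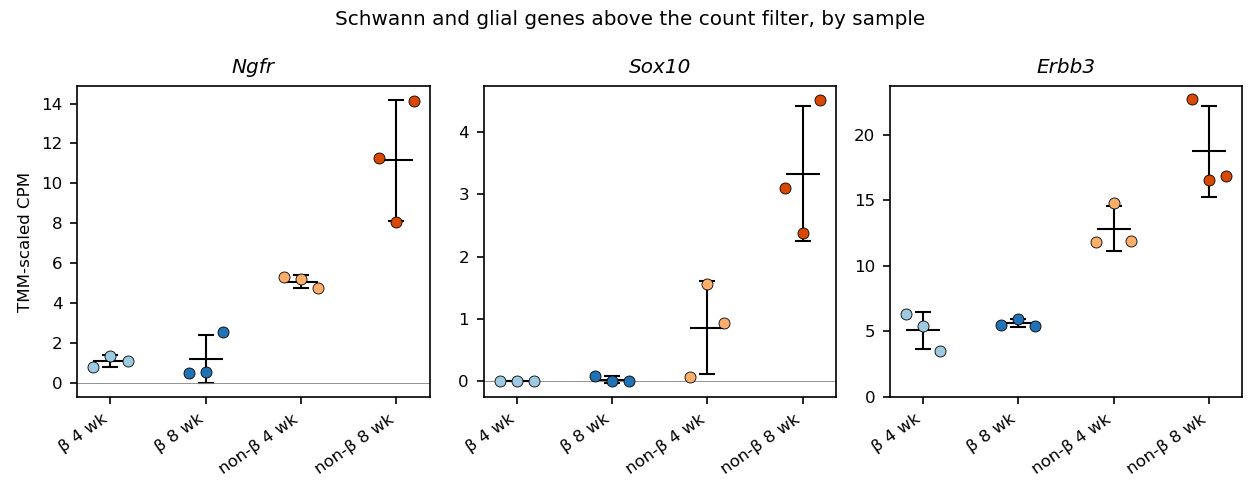
TMM-scaled CPM (vertical axes, linear, each with its own range) of Ngfr, Sox10 and Erbb3 in the 4 groups. Points are samples, the bars show the mean and SD of 3 replicates, and the 8-week non-β samples are the highest in all 3 genes. Ngfr and Erbb3 are above 0 in every β sample, and Sox10 is at 0 in 5 of the 6.

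Cdh19 (ENSMUSG00000047216, chr1:110888326-110977584, minus strand) gave no count in any of the 6 β libraries. Its estimated counts in non-β-cells were 5, 0 and 12 at 4 weeks and 12, 3 and 1 at 8 weeks. With 33 counts against 0 it was at least 12.5-fold higher in the non-β fraction, taking 3 counts over the 6 β libraries (0.0214 CPM) as the floor. S100b (ENSMUSG00000033208, chr10:76253853-76261159, plus strand) also gave no count in β-cells and gave 3, 0 and 1 at 4 weeks and 1, 0 and 6 at 8 weeks in non-β-cells. Its 11 counts against 0 put it at least 4.17-fold higher, and 6 of them came from replicate 3 of the 8-week non-β-cells, without which the bound was 2.25-fold. Gfap (ENSMUSG00000020932, chr11:102887336-102900912, minus strand) gave 0, 3 and 0 counts in 4-week β-cells and 3, 0 and 0 in 8-week β-cells, and 0, 0 and 8 at 4 weeks and 6, 2 and 9 at 8 weeks in non-β-cells. With 25 counts against 6 its ratio was 4.74 (interval 1.90 to 14.1), and it was 7.77 without replicate 2 of the 4-week β-cells and 8.01 without replicate 1 of the 8-week β-cells. S100b and Gfap, whose proteins are common stains for glia in tissue sections, were therefore at 9 counts or fewer in every library. S100b overlaps Dip2a and Gfap overlaps Gm26668 on the opposite strand, and Cdh19 contains Gm38255 and Gm36944 on its own strand, so a few counts of these genes are uncertain.

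The comparison of the fractions asks which of these RNAs were found outside the β-cells. By limma-voom with Benjamini-Hochberg adjustment over all tested genes, Ngfr was lower in β-cells, with a log2 difference of -2.23 (SE 0.52) at 4 weeks, with an adjusted p of 0.00364, and of -3.65 (SE 0.53) at 8 weeks, with an adjusted p of 8.85e-05. Its counterpart for Erbb3 was -1.36 (SE 0.24) at 4 weeks, with a limma adjusted p of 0.000442, and -1.74 (SE 0.22) at 8 weeks, with an adjusted p of 2.37e-05. For Sox10 the fitted differences were -4.37 (SE 1.61, limma adjusted p = 0.0384) and -6.58 (SE 1.49, limma adjusted p = 0.00263), and both depend on how 0 counts are treated. Counted directly, Sox10 was at least 17.6-fold higher in non-β-cells at 4 weeks, from 53 counts against 0, with 3 counts over the 3 β libraries (0.0449 CPM) as the floor. Replicate 2 of the 4-week non-β-cells held 32 of the 53 counts, and without it the bound was 10.0-fold. Without replicate 1 of the same group it was 27.8-fold, and without replicate 2 of the 4-week β-cells 10.9-fold. All 3 tested genes differed at both ages, where 23.7% of tested genes were called higher in non-β-cells at 4 weeks and 25.6% at 8 weeks. The groups did not overlap for any of the 3 at either age, which held for 26.6% of tested genes at 4 weeks and 32.4% at 8 weeks in this direction.

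The Sox10 call at 4 weeks was lost in 6 of the 12 fits that left out 1 sample: any of the 4-week β samples, 4-week non-β replicate 2 or 3, or 8-week non-β replicate 1, with limma adjusted p-values from 0.0506 to 0.0952. It was also lost without both 4-week samples numbered 3 (adjusted p = 0.0925) and with sample quality weights (adjusted p = 0.0611), whereas edgeR (adjusted p = 0.00491) and DESeq2 (adjusted p = 6.36e-05) called it.

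When the filter on low counts was dropped, so that 28647 genes entered limma-voom, Foxd3 (log2 -3.58, adjusted p = 0.00693) and Cdh19 (log2 -3.45, adjusted p = 0.00996) were also called lower in 8-week β-cells. Gfap (-2.83, adjusted p = 0.119) and S100b (-2.08, adjusted p = 0.0638) were not. That made 5 of the 7 genes higher in non-β-cells at 8 weeks, where 16.1% of all genes with a count were called in this direction. At 4 weeks Cdh19 passed (log2 -2.68, adjusted p = 0.0476), while Foxd3 (-2.43, adjusted p = 0.0772), S100b (-1.39, adjusted p = 0.221) and Gfap (-0.58, adjusted p = 0.826) did not, against 12.5% of genes. These fitted values of genes with 0 counts are no bounds, and the counts above carry the comparison.

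Each of the 7 genes was then tested alone, with fraction labels permuted exactly within each age (400 arrangements, two-sided, smallest possible p 0.005 without ties). The mean difference between non-β- and β-cells was 6.98 CPM for Ngfr, 2.08 for Sox10 and 10.4 for Erbb3, each with the smallest p this test allows, 0.005. It was 0.298 CPM for Foxd3 and 0.262 for Cdh19, both with an exact permutation p of 0.02. For Gfap it was 0.168 CPM (exact permutation p = 0.07) and for S100b 0.0858 CPM (exact permutation p = 0.08). These 7 p-values are not adjusted for their number. Ngfr, Erbb3, Sox10, Foxd3 and Cdh19 thus passed this test, and Gfap and S100b did not. Libraries tied at 0 raise the smallest p a gene can reach, to 0.02 for Foxd3 and Cdh19 and to 0.08 for S100b. With all libraries in, S100b could therefore not pass, and no conclusion is drawn from its p. With the replicate number as a block, Foxd3 and Cdh19 did not pass, each with an exact permutation p of 0.0625. Each had a pair of libraries at 0 counts in both fractions after rounding, so 0.0625 was the smallest p possible. The block could therefore not have called either gene. S100b passed when replicate 2 of the 4-week or of the 8-week non-β-cells, both at 0 counts, was left out (exact permutation p = 0.02 in each case).

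With age, all 3 tested genes had higher levels in the 8-week than in the 4-week non-β-cells, with no overlap between the groups. Mean Sox10 went from 0.858 ± 0.746 to 3.34 ± 1.08 CPM (SD, n = 3), mean Ngfr from 5.07 ± 0.306 to 11.1 ± 3.03 CPM and mean Erbb3 from 12.8 ± 1.71 to 18.7 ± 3.49 CPM. By limma-voom the log2 change was 2.85 (SE 0.75, adjusted p = 0.0182) for Sox10, 1.14 (SE 0.27, adjusted p = 0.0117) for Ngfr and 0.57 (SE 0.18, adjusted p = 0.0456) for Erbb3, where 11.6% of tested genes were called higher at 8 weeks and 18.9% were higher without overlap. Sox10 entered the test through the 8-week non-β samples, so its higher level there and the count of 3 members are not evidence of their own. Neither count model made any of these calls. The adjusted p-values for Sox10, Ngfr and Erbb3 were 0.219, 0.171 and 0.113 by edgeR and 0.18, 0.113 and 0.0788 by DESeq2, and both gave a lower Sox10 change, 1.97 and 1.98. The calls for age thus rest on limma-voom, while the direction was upward in all 10 alternatives and all 12 fits that left out 1 sample.

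Single libraries also decided the limma-voom calls. Sox10 was not called without replicate 1 of the 4-week non-β-cells (log2 1.40, adjusted p = 0.079) or without replicate 3 of the 8-week non-β-cells (adjusted p = 0.0512). Ngfr was not called without replicate 3 of the 8-week non-β-cells (adjusted p = 0.0502). Erbb3 was not called in 10 of the 12 fits that left out 1 sample, all but those without replicate 1 or 3 of the 4-week β-cells, and without replicate 1 of the 8-week non-β-cells its adjusted p was 0.246. Erbb3 was also not called with total counts as scaling (adjusted p = 0.0836), without the filter (0.0802) or with only the groups compared (0.103), and Sox10 not with only the groups compared (0.0645).

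None of the 4 genes under the filter was called for age in non-β-cells when all 28647 genes were fitted by limma-voom, where 7.39% of genes were called higher at 8 weeks. Their log2 changes were 2.27 for Gfap (adjusted p = 0.347), 1.76 for Foxd3 (adjusted p = 0.361), 0.61 for Cdh19 (adjusted p = 0.815) and 0.54 for S100b (adjusted p = 0.815). Cdh19 counts in the 3 non-β libraries summed to 17 at 4 weeks and 16 at 8 weeks.

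In β-cells none of the 3 tested genes passed the limma-voom test for age, where 17.9% of tested genes did, and none had an unadjusted p under 0.05. EdgeR and DESeq2 made no call either. The change was -0.28 for Ngfr (95% interval -1.77 to 1.21, adjusted p = 0.816), 0.19 for Erbb3 (interval -0.38 to 0.76, adjusted p = 0.657) and 0.64 for Sox10 (interval -3.81 to 5.09, adjusted p = 0.863). The interval of Erbb3 leaves out a change of 1 log2 unit in either direction, and those of Ngfr and Sox10 do not.

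The interaction subtracts the age change of the non-β fraction from that of the β fraction and so tests whether the change differed between them. It was -1.42 for Ngfr (95% interval -3.02 to 0.19, limma adjusted p = 0.331), -0.38 for Erbb3 (interval -1.07 to 0.31, adjusted p = 0.583) and -2.21 for Sox10 (interval -6.94 to 2.52, adjusted p = 0.653). No member passed, where 5.13% of tested genes did, and none had an unadjusted p under 0.05 or a call by edgeR or DESeq2. A difference between the fractions in the age change was thus not shown. Pooled over both fractions with age labels permuted exactly within each, Erbb3 was 3.22 CPM higher at 8 weeks (exact permutation p = 0.04), Ngfr 3.09 CPM (p = 0.05) and Sox10 1.25 CPM (p = 0.05). The other 4 genes gave exact permutation p-values from 0.2 to 1. The Erbb3 result was lost when any 1 of 5 samples was left out, which were replicate 3 of the 4-week β-cells, each of the 4-week non-β-cells and replicate 1 of the 8-week non-β-cells, with exact permutation p-values from 0.055 to 0.095.

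**Figure D3:**
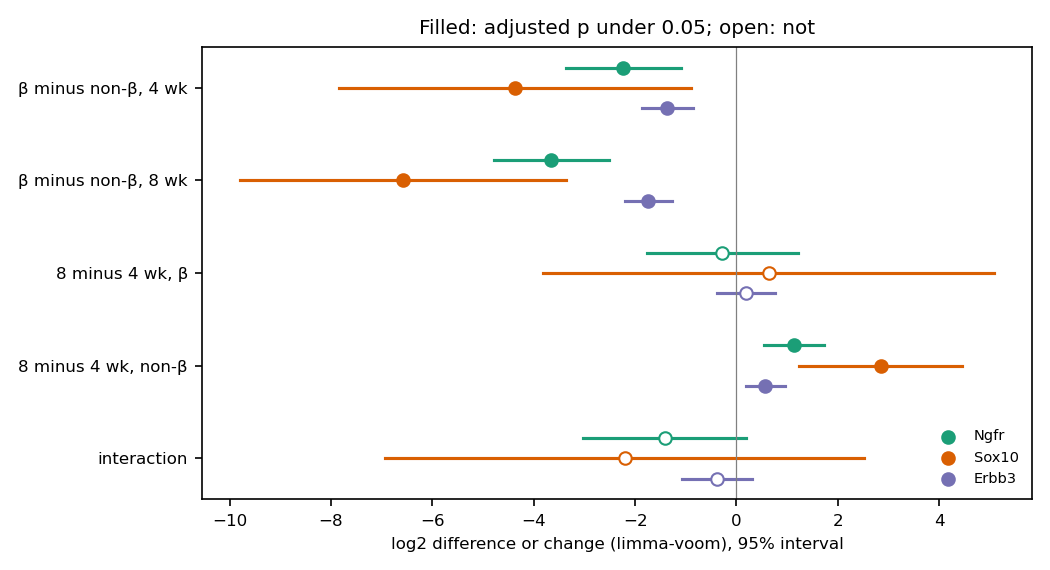
Log2 differences (horizontal axis) of Ngfr, Sox10 and Erbb3 in the 5 comparisons (vertical axis) by limma-voom, with lines for 95% intervals. Filled points passed an adjusted p of 0.05, and all 3 genes lie left of 0 in both β against non-β comparisons and right of 0 for age in non-β-cells, while the intervals for age in β-cells and for the interaction cross 0.

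Among 24 further genes of the Schwann lineage, 16 were tested. In 8-week β-cells 8 were lower and 2 higher than in non-β-cells, with a median log2 difference of -0.69 against 0.01 over all tested genes. At 4 weeks 5 were lower and 4 higher. Over all tested genes, 24.9% at 4 weeks and 23.6% at 8 weeks were called higher in the β fraction. Called lower there were 23.7% at 4 weeks and 25.6% at 8 weeks. Of the 16, Mal, Gpm6b, Pllp, Pou3f1 and Gfra3 entered the test only through non-β samples. The counts and the median that hold them are therefore no evidence of direction. Among those that passed without overlap, the largest differences at 8 weeks were in Mal, a myelin proteolipid (log2 -7.39), Gfra3, the receptor subunit for artemin (-5.58), and Egr2, the transcription factor of myelinating Schwann cells (-5.51). At 4 weeks they were in Egr2 (-4.55), Gfra3 (-4.17) and Gap43, a protein of growing axons and immature Schwann cells (-2.92). At 4 weeks Egr2 stood at 99.4 ± 12.5 CPM in non-β-cells and at 4.20 ± 0.0979 CPM in β-cells (SD, n = 3). In 8-week non-β-cells it stood at 84.5 ± 9.37 CPM. Sox10 was far lower there, at 0.858 CPM at 4 weeks and 3.34 CPM at 8 weeks, and mean Egr2 did not rise with it. Which cells held the Egr2 RNA was not tested.

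Some genes of compact myelin had as much RNA in β-cells. Mbp, which encodes myelin basic protein, stood at 157 ± 28.9 and 159 ± 4.29 CPM in the β fraction and at 124 ± 8.76 and 141 ± 6.11 CPM in the non-β fraction at 4 and 8 weeks. It was higher in β-cells at 4 weeks (log2 0.32, limma adjusted p = 0.0467) and did not pass at 8 weeks (0.17, adjusted p = 0.271). Pmp22 was the highest in 4-week β-cells, at 24.5 ± 4.15 CPM, and fell by 2.10 on the log2 scale there by 8 weeks (limma adjusted p = 0.000259). The summed level of the 24 genes ranged from 353 to 479 CPM in β-cells and from 427 to 487 CPM in non-β-cells, so the fractions overlapped. Its largest parts in every group came from Mbp and Ncam1. Mean Ncam1 was 111 and 84.5 CPM in the β and 116 and 109 CPM in the non-β fraction at 4 and 8 weeks. The sum thus says little of the lower genes of the list.

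Lower genes of the same list were counted directly. Sox2, a factor of immature Schwann cells, and Scn7a, a sodium channel of non-myelinating Schwann cells, gave 0 counts in all 6 β libraries. In non-β-cells Scn7a gave 12 counts in all at 4 weeks and 60 at 8 weeks. Sox2 gave 22 and 15 there, of which a single library held 15 at 4 weeks and 14 at 8 weeks. Dhh, the hedgehog ligand secreted by Schwann cells, gave 0 counts in 9 libraries and 14 in the 3 libraries of 8-week non-β-cells. Drp2 went the other way, with 44 and 60 counts in β-cells against 10 and 18 in non-β-cells at 4 and 8 weeks. Fabp7 gave 0 and 9 counts in β-cells against 1 and 9. Mag gave 2 and 7 against 16 and 28, Gldn 2 and 7 against 9 and 18, and Cldn19 0 and 0 against 0 and 2. None of these lower genes passed the filter.

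With age in non-β-cells, 5 of the 16 tested genes of this list rose and 1 fell by limma-voom, with a median log2 change of 0.36 against 0.01 over all tested genes, of which 11.6% were called higher and 4.80% lower at 8 weeks. Gpm6b and Mal were over 1 CPM in no sample but those of 8-week non-β-cells, so both were bound to be higher in that group. The count of 5 and the median, which hold them, are no evidence of direction. The 3 with the largest change among those that passed without overlap were Gpm6b, a neural proteolipid (log2 4.67, adjusted p = 0.00272), Mal (3.86, adjusted p = 0.000976) and Gfra3 (2.24, adjusted p = 0.000122). Gpm6b went from 0.399 ± 0.401 to 5.52 ± 0.585 CPM (SD, n = 3). In β-cells 3 rose and 4 fell, among them Egr2 (-1.19), where 8.59% of tested genes were called higher and 9.35% lower at 8 weeks. The interaction passed in 2 of the 16 against 5.13% of tested genes, for Gpm6b (log2 -5.61, limma adjusted p = 0.0252) and for the adhesion molecule L1cam (1.31, adjusted p = 0.023), which fell in non-β-cells. The way Gpm6b entered the test favours a negative interaction, so this count of 2, which holds it, is no evidence of its own.

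Of the neuregulins and other ErbB receptors, 5 of 9 genes were tested. Erbb2, the kinase partner of ERBB3, was at 0.270 ± 0.0384 and 0.348 ± 0.305 CPM in the β fraction and rose in the non-β fraction from 0.992 ± 0.371 to 5.27 ± 2.25 CPM (log2 2.51, limma adjusted p = 0.00639). Only non-β libraries had it over 1 CPM, 2 of the younger and 3 of the older ones, so Erbb2 entered the test through the group where it was highest. Its difference between the fractions at 8 weeks was -4.52. Nrg1, the ligand, was lower in β-cells, with log2 differences of -3.14 at 4 weeks and -4.39 at 8 weeks, and its age change in non-β-cells did not pass (0.85, limma adjusted p = 0.124). Egfr went the other way, higher in β-cells by 3.98 at 4 weeks, and it rose with age in non-β-cells by 3.20 (limma adjusted p = 0.000895) with an interaction of -2.86 (adjusted p = 0.012). Errfi1, an inhibitor of ErbB kinases, was lower in β-cells, with log2 differences of -3.78 and -3.07, and rose there by 0.85. In all, this list had 1 higher and 2 lower in β-cells at 4 weeks and 1 higher and 3 lower at 8 weeks, and 2 of 5 rose with age in non-β-cells. Over all tested genes, 24.9% were higher and 23.7% lower in β-cells at 4 weeks, 23.6% higher and 25.6% lower at 8 weeks, and 11.6% rose with age in non-β-cells. With 5 genes tested, of which Erbb2 and Nrg1 entered only through the non-β samples, nothing is read from these counts.

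Of the neurotrophins, their receptors and partners of NGFR, 8 of 11 were tested. Sorcs2, which forms a receptor complex with NGFR, was lower in β-cells, with log2 differences of -4.88 at 4 weeks and -4.73 at 8 weeks. Ntrk2, the receptor for brain-derived neurotrophic factor, was higher in β-cells by 1.61 and 2.11, and rose with age in the β (1.07) and the non-β fraction (0.57) (limma adjusted p = 2.5e-05 and 0.00767). In total 2 of the 8 were higher and 3 lower in β-cells at 4 weeks, 3 higher and 2 lower at 8 weeks, and 1 rose with age in non-β-cells. Against the shares over all tested genes, 24.9% and 23.6% higher, 23.7% and 25.6% lower and 11.6% rising, nothing is read from these counts of 8 genes.

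Neural crest transcription factors were tested in 7 of 12 cases. None was higher in β-cells, 3 were lower at 4 weeks and 5 at 8 weeks, and 5 rose with age in non-β-cells, where 23.7% and 25.6% of tested genes were lower in β-cells and 11.6% rose. Sox9, Zeb2, Snai1 and Msx1 entered the test only through the non-β samples, and Msx1 and Snai1 not without those of 8 weeks, so the counts that hold them are no evidence of direction. The largest age changes among those that passed without overlap were in Msx1 (log2 4.44), Snai1 (3.74) and Ets1 (2.83), and the largest such differences at 4 weeks were in Sox9 (-5.22), Zeb2 (-4.82) and Ets1 (-2.24). Of 7 tested astrocyte and filament genes, 5 were lower and 1 higher in 8-week β-cells, against 25.6% and 23.6% of tested genes. With age 4 of them rose in non-β-cells, against 11.6%. These were led by Gja1, which encodes connexin 43 (4.06), the filament gene Nes (2.95) and the muscle filament gene Des (2.16). Gja1 and Des likewise would not have been tested without the 8-week non-β samples, so the counts that hold them are no evidence of direction. Vim was lower in β-cells, with log2 differences of -3.97 and -4.97. Most of these factors and filaments are also expressed in fibroblasts, pericytes, endothelium or duct cells.

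Markers of other cell types moved with the same groups. All 8 endothelial markers rose with age in non-β-cells, where 11.6% of tested genes were called higher at 8 weeks, with a median log2 change of 3.31. Their summed level went from 40.9 to 81.1 CPM at 4 weeks to 309 to 836 CPM at 8 weeks. All 10 fibroblast, pericyte and stellate cell markers rose, against the same share, with a median of 2.43. The sum of these 10 went from 111 to 314 CPM to 717 to 1107 CPM. Of the 2 lists, Tie1, Tek and Lum would not have been tested without the 8-week non-β samples. The summed level of the 7 Schwann and glial genes went from 17.8 to 21.7 CPM to 27.7 to 38.2 CPM. Most of this sum came from Erbb3 and Ngfr, which also had counts in every β library, so it says little of the lower members. In β-cells the endothelial sum was 6.18 to 15.7 CPM and the mesenchymal sum 4.40 to 55.3 CPM over both ages. None of the markers in these 2 lists was at 0 in a whole group, and the part of these cells in the results for Erbb3, Ngfr and Sox10 was not tested. In sorted bulk samples, fewer cells of a type and less RNA per cell cannot be told apart.

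Of 9 autonomic neuron markers, 5 were tested. Dbh was at 0 in every sample, and Phox2a was at 0 in 4-week non-β-cells. The summed level was 63.2 to 76.4 CPM in β-cells and 45.8 to 55.7 CPM in non-β-cells, the reverse of the order for Sox10, and its largest part came from Tubb3 in β-cells and Elavl4 in non-β-cells. Hand2, tested only through the 8-week non-β samples, was lower in 8-week β-cells, with a log2 difference of -4.60. Leukocyte markers summed to 51.7 to 77.3 CPM in β-cells and 7.86 to 20.5 CPM in non-β-cells, mostly from Cd68. Acinar markers summed to 103 to 1013 CPM in the β and 34.3 to 818 CPM in the non-β fraction. With age 6 of these 9 rose in the β and 3 in the non-β fraction, against 8.59% and 11.6% of tested genes. The part of these cells in the results was not tested.

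**Figure D4:**
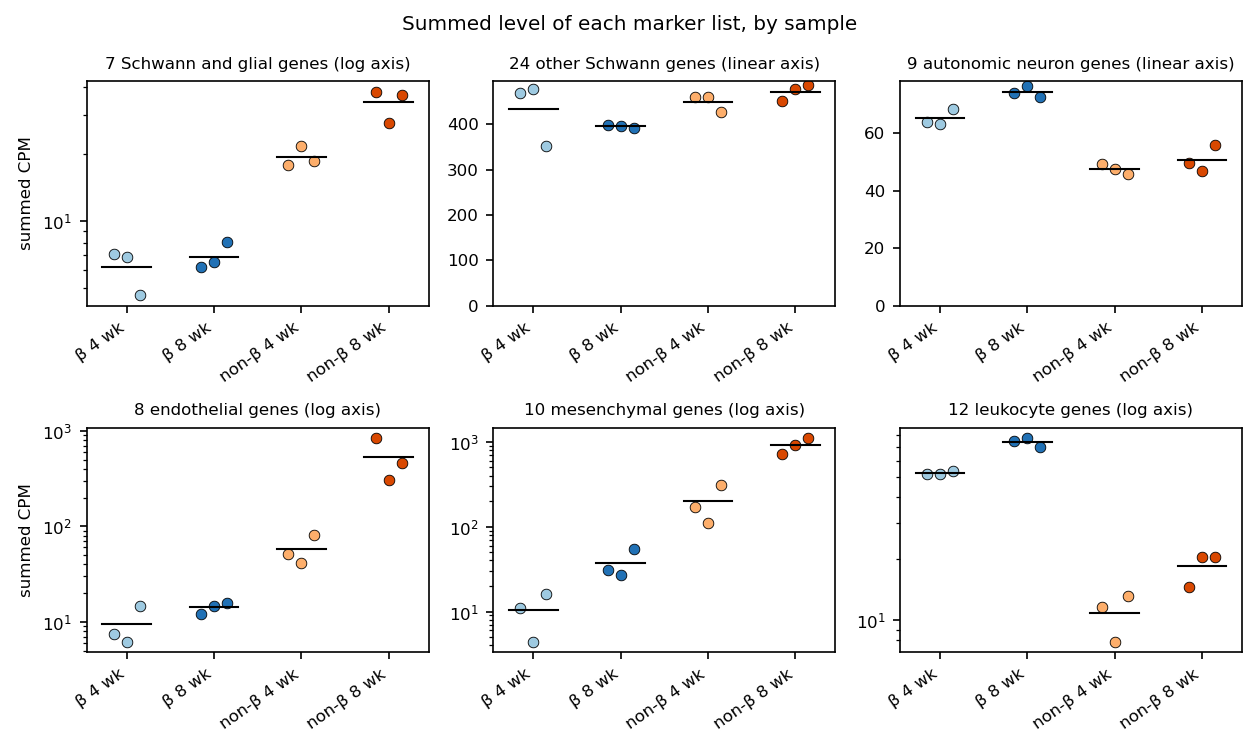
Summed TMM-scaled CPM (vertical axes, linear from 0 in 2 panels and logarithmic in 4, as each title says) of 6 marker lists in the 4 groups. Points are samples and lines are group means, and the 8-week non-β samples are the highest for the Schwann and glial, endothelial and mesenchymal lists, whereas neuron and leukocyte sums are higher in β-cells.

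The genes whose profile over the 12 samples was most like that of each tested member were ranked by the root-mean-square difference of centred log2 CPM. For Ngfr they were Spock3 (0.34), Layn (0.48) and Kcnk10 (0.49). For Sox10 they were Tspan11 (0.63), Pear1 (0.67) and Fli1 (0.70), the last listed at 0 in all β samples. For Erbb3 they were Atxn7l1 (0.12), Iqsec1 (0.14) and Arrb1 (0.16). The smaller distances of Erbb3 go with its smaller spread across samples, an SD of 0.86 log2 units against 1.65 for Ngfr and 2.33 for Sox10.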

How the data were processed

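RNA-seq was analysed in 12 samples, 3 for each combination of fraction and age, grouped by GEO's labels. The authors cleaned reads with fastp, quantified Ensembl release 98 transcripts (GRCm38) with kallisto, summed these with tximport and deposited estimated counts per gene, unscaled and unfiltered. The library kit was strand-specific and meant for low input. Tool versions are not given in the sources used here. From 14.0% to 19.3% of a sample's values were not whole. Kallisto divides reads among similar transcripts, so counts at overlapping genes are estimates.

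Here estimated counts were rounded, genes with CPM above 1 in at least 3 samples were kept, and library sizes were adjusted by TMM (trimmed mean of M-values, edgeR 4.0.16). Two-sided limma-voom tests (R 4.3.3, limma 3.58.1) used 1 model of 4 group means, with Benjamini-Hochberg adjustment over all 15598 genes and a threshold of 0.05. Displayed log2 CPM used a prior count of 2. Single genes were tested by exact permutation within strata (scipy 1.17.1). Intervals cover counting error only. Values given as "at least" set the β counts to a floor of 3 and leave out the counting error of the non-β counts. A single library's floor lay between 0.113 and 0.224 CPM. Gene names, exon lengths and coordinates, counted from 1, came from GENCODE M21 (GRCm38), which named 51916 identifiers.

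The genes, related lists and markers were chosen with earlier results of these data known. The 7 genes are always named. Of each related list, up to 3 genes per comparison with the largest log2 change are named if they passed 0.05 without overlap of the groups (for the interaction, 0.05 only), and other genes named in the text, such as Mbp, Sox2, Scn7a, Dhh and Cd68, were chosen after their values were seen. The 3 nearest genes by profile are named for each tested member.

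Alternatives were DESeq2 1.42.0, the quasi-likelihood test of edgeR, other scalings and filters, quality weights, only the groups compared, a replicate block and leaving out samples. Some genes of these lists are not reported here.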

Additional observations from a re-analysis of the deposited data

How the results depend on the processing

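The differences of Ngfr and Erbb3 between the fractions held in direction and call under all 10 alternatives at both ages and in all 12 fits that left out 1 sample. Among all genes, calls for age in β-cells went from 2799 to 5382 with quality weights (1695 to 3128 with 1 sample left out), and calls for the interaction from 800 to 1562 by DESeq2, 2384 with quality weights and 1468 without both 4-week samples numbered 3 (455 to 979 with 1 sample left out). Of the 3 tested genes, age in non-β-cells called 0 by edgeR, 0 by DESeq2, 1 with only the groups compared, and 0 to 3 with 1 sample left out. Without the filter, 5 genes were called between fractions at 8 weeks. Pooled over fractions, the age test called 1 gene, 0 with total counts as scaling, 0 on log2 CPM, and 0 to 3 with 1 sample left out. The cause of these shifts was not tested.

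Uncalled changes turned sign: for age in β-cells Ngfr was 0.14 by edgeR and by DESeq2 and Erbb3 -0.0362 with quality weights and -0.0399 without both 4-week samples numbered 3, and the interaction of Sox10 was 0.60 by edgeR. With 1 sample left out, age in β-cells ranged from -1.09 to 0.13 for Ngfr, -0.22 to 1.09 for Sox10 and -0.0407 to 0.32 for Erbb3, and the pooled age difference from -0.0632 to 0.0845 CPM for Cdh19 and -0.0165 to 0.0604 CPM for S100b.

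Samples of different groups that share a replicate number did not all deviate together: correlations of their deviations ran from 0.0797 to 0.306 between fractions at 4 weeks, 0.00797 to 0.0487 at 8 weeks, -0.00634 to 0.0343 between ages in β-cells and -0.00456 to 0.124 in non-β-cells. Between fractions at 4 weeks the value of 0.306 was that of replicate 3, and samples with different numbers gave -0.230 to 0.114. The labels state no pairs, so the numbers are not taken as pairs, and a shared preparation was not tested. Adding the replicate number as a block, the interaction called 2042 genes, age in β-cells gave 0.11 for Ngfr, Erbb3 lost its age call in non-β-cells (limma adjusted p = 0.0701), and the exact permutation tests called 3 genes in place of 5 between fractions, Foxd3 and Cdh19 no longer passing (p = 0.0625 each), and 0 in place of 1 for age.

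Counts under about 10 per library limit S100b, Gfap, Foxd3 and Cdh19, and no statement on their age change can be made at this depth.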

Other observations

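In the list of other S100 family genes and their receptor Ager, all 8 genes were tested. In the β fraction 5 were higher and 2 lower at 4 weeks, against 5 and 1 at 8 weeks, where 24.9% and 23.6% of all tested genes were higher and 23.7% and 25.6% lower. S100a4 was higher in β-cells by 3.36 and 2.81 on the log2 scale at 4 and 8 weeks, and S100a1 by 2.15 at 8 weeks, whereas S100a16 was lower (-3.01 and -3.81). Ager, the receptor for several S100 proteins, was lower in 4-week β-cells, with a log2 difference of -3.17. It entered the test only through the non-β samples, so the count of 2 lower, which holds it, is no evidence of direction. In β-cells 3 of the 8 fell with age by limma-voom, against 9.35% of tested genes, S100a6 by 1.40, S100a4 by 1.37 and S100a10 by 0.74. In non-β-cells 1 rose, S100a16, by 1.03 (limma adjusted p = 0.00943), against 11.6%.

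Duct cell markers, all 7 of them tested, were lower in 8-week β-cells in 6 cases and higher in 1, and 4 rose with age in non-β-cells, where 25.6%, 23.6% and 11.6% of tested genes were called. Cftr, 1 of the 7, would not have been tested without the 8-week non-β samples.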
